A study of Mus musculus with 20 samples.

Results

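Interferon-stimulated genes are the genes that cells switch on when an interferon binds its receptor, and 33 of them were followed here in mouse white fat under control feeding and under food restriction. The genes were chosen by symbol, with earlier results of these data known. All 33 were found among the 55401 genes of the deposited count table by their gene identifiers. All 33 passed the filter on low counts, which left 17813 genes in all, so no member was left out of a test.

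The 20 libraries were made from polyA RNA of mouse eWAT, the white fat beside the epididymis. Control libraries (n = 10) came from mice on the control diet. Restricted libraries (n = 10) came from Random Food Restriction, which joins intermittent fasting to a 5% cut in calories. A further label marks libraries as Yes or No for "spermatozyte contamination", that is, RNA from meiotic germ cells of the testis. It gives 4 groups: Control 3, 6 and 7 and Restricted 4 to 10 were marked No, and Control 1, 2, 4, 5, 8, 9 and 10 and Restricted 1 to 3 were marked Yes. Strain, age and the number of animals are not in the labels, and nothing says that the libraries came from separate animals. P-values therefore cover the spread among these 20 libraries, and part of that spread may be technical.

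Interferons of type I (alpha and beta) signal through the receptor chains IFNAR1 and IFNAR2 and the kinases JAK1 and TYK2. A transcription factor complex that holds STAT2 and IRF9 then binds the interferon-stimulated response element (ISRE) of target genes, while interferon gamma acts at a different element, GAS. The products sense viral nucleic acid, cut or hide viral RNA, block entry and budding, break the vacuoles of intracellular microbes, or damp the signal itself. In white fat these genes are expressed by adipocytes, endothelium and resident immune cells, and a low level is kept up without infection.

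Totals ran from 14306528 to 44061508 counts per library (median 22866036), and the members took 13736 to 46300 of them. White adipocyte markers such as Adipoq and Lep summed to 25300 to 39300 CPM (counts per library scaled to a common total) in each library. These markers speak for white fat, and the depot that the label names was not tested. The contamination label was met by its marker genes only in part. The summed germ cell markers overlapped, at 2.69 to 29 CPM in libraries marked No and 3.99 to 98.8 CPM in those marked Yes. Spata18 parted the labels (0 to 0.771 against 1.53 to 9.33 CPM), whereas Sycp3, a protein of the meiotic chromosome axis, followed the diet, at 2.03 ± 0.515 CPM in control and 5.21 ± 2.82 CPM in restricted libraries (SD, n = 10 each). Skeletal muscle transcripts summed to 851 to 3680 CPM in Control 1 to 5 and Restricted 1 and to 16.1 to 114 CPM in the other 14 libraries. Epididymis markers summed to 320 CPM in Control 1 and 67.1 CPM in Control 6. For the members and the lists of the pathway, calls by diet are given also without the 6 libraries that held muscle transcripts.

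The ISRE core can be read in the DNA before many of these genes. RefSeq windows on GRCm38.p6, from 250 bases before to 50 bases after the transcription start, were given for 23 members. Usp18, Dhx58, Zbp1, Oas2, Mx1, Mx2, Parp14, Iigp1, Rtp4 and Ifi27 had none. The stretches before the start are shown for a pair of members that were lower with restriction and hold the core (Isg15 and Oas3), for one that was lower and does not (Ifit2), and for one of the members above 0 in the restricted libraries under both labels (Ifit3). Each reads 5′ to 3′ on the strand of the gene, and capitals mark the core, that is, GAAA, any 2 bases and GAAA again, or its reverse complement, TTTC, any 2 bases and TTTC.
Isg15, chr4:156200819-156201068, minus strand: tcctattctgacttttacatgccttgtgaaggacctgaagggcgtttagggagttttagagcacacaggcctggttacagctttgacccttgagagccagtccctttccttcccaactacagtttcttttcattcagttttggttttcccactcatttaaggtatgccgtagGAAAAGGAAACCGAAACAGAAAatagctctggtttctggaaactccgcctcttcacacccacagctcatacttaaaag
Oas3, chr5:120777660-120777909, minus strand: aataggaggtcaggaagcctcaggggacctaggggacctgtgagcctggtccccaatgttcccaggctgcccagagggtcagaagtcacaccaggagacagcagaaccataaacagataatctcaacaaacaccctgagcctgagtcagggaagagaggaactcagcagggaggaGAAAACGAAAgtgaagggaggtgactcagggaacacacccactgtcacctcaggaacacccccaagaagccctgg
Ifit3, chr19:34583279-34583528, plus strand: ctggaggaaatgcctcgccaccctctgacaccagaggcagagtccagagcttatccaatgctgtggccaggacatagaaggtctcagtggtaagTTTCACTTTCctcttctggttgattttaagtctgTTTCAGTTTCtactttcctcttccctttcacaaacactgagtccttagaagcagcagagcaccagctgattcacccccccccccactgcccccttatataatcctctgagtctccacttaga
Ifit2, chr19:34550444-34550693, plus strand: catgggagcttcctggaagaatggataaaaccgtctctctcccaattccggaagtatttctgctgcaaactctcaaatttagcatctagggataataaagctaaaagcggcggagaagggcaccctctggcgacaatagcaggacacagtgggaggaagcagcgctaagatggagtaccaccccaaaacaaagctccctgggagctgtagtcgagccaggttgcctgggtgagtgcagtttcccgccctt

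In Isg15, 3 overlapping cores began at positions −78, −72 and −66 from the start and formed 1 run. Oas3 held 1 core at −75 and Ifit3 held 2, at −156 and −122. Neither Ifit2 window, of which the one that begins farther upstream is shown, held a match, although Ifit2 did hold the GAS core at −241. Over all members the ISRE core, searched on both strands, was found in 15 of 23 (65.2%), against 3.99% of 27025 genes with such windows. Of the 24 matches, with overlapping ones counted apart, 22 began before the start and 21 within 160 bases before it. The windows span 250 bases before and 50 after the start, which limits where a match could lie. The places of matches over all genes were not compared. Gbp3, Isg15, Oas1a, Bst2, Irgm1, Ifit3 and Ifit1 held 2 or more in a window, some of them overlapping. Cmpk2, Ifi35, Ifi44, Ifit2, Irf7, Irf9, Oasl2 and Xaf1 held no match to these letters. The GAS core TTCNNNGAA, which reads the same on both strands, was found in 6 of 23 (26.1%), against 9.55% of all genes: Bst2, Gbp7, Ifi35, Ifit2, Igtp and Oas1a.

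Levels between members were compared as CPM per kilobase of the deposited gene length, as means over the 20 libraries. Ifi27, a small mitochondrial protein, stood highest at 305 CPM per kilobase, with a range of 240 to 434 that did not meet that of any other member. Bst2 (tetherin), which ties budding virus to the cell surface, followed at 41.6 (33 to 59.1 CPM per kilobase), and its range met that of Gbp2, at 26.7 (18.9 to 34.2). Below these, the ranges of neighbours in the order overlapped throughout, from Ifi35 at 17.6 CPM per kilobase through Irf7 at 8.11, Isg15 at 6.76 and Stat2 at 6.39 down to Usp18 at 1.59. Mx1, Mx2, Ifi44 and Oas3 closed the order at 0.834, 0.484, 0.244 and 0.107 CPM per kilobase. Counting error weighs more on these last genes than on the others.

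**Figure D1:**
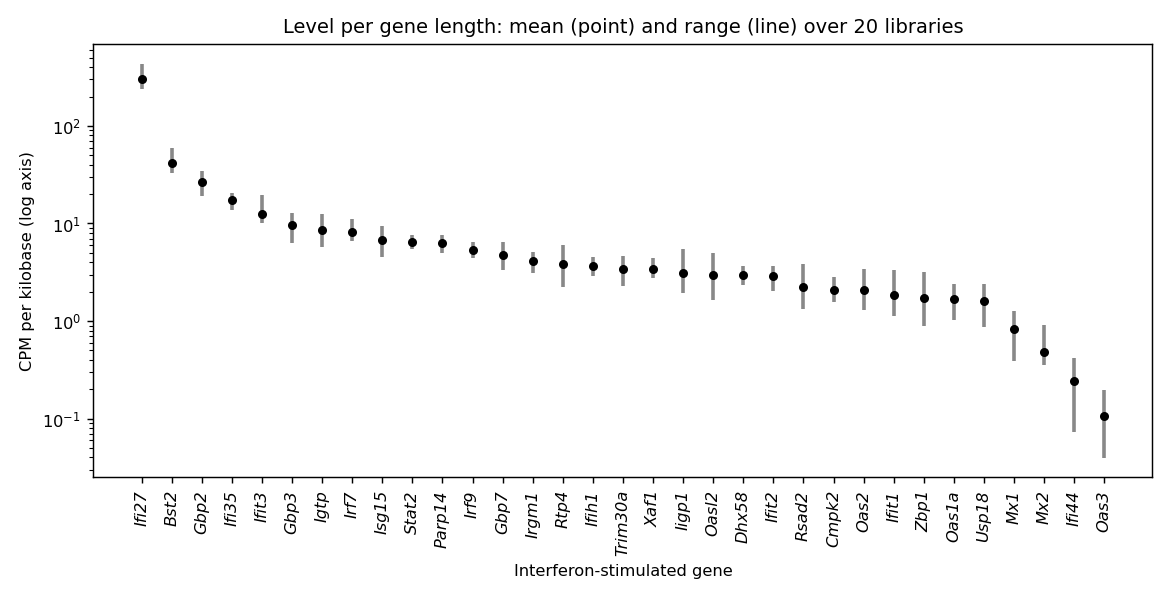
Mean level of each of the 33 interferon-stimulated genes over 20 libraries, in CPM per kilobase of gene length on a log axis; lines span the lowest to the highest library. Ifi27 stands apart at 305 and Oas3 is lowest at 0.107.

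Under restriction 4 members fell, Mx1, Ifit2, Isg15 and Oas3, and none rose. With the contamination label as a term of the fit, 29 members had a log2 fold change below 0 (87.9%, against 48% of all genes), all but Ifit3, Ifi27, Ifih1 and Bst2. In edgeR's quasi-likelihood test with Benjamini-Hochberg adjustment over all 17813 genes, at an adjusted p under 0.05, the 4 of 33 (12.1%) stand beside 6.28% of all genes called lower, and the 0 called higher beside 5.5%. Counted in either direction, the 12.1% were about the share of all genes called (11.8%). The median log2 fold change of the members was −0.15, against 0.01 over all genes, and members ranged from −0.84 to 0.22. At an unadjusted p under 0.05, 7 members were lower (21.2%, against 12.9% of all genes) and 2 were higher. The 9 in either direction (27.3%) were about the share of all genes (26.3%). Over the 20 libraries no member had diets that did not overlap, a pattern with control above that 0.505% of all genes had. None of the 4 calls held in the 14 libraries without muscle transcripts, where edgeR called 0 members. Of all genes, 2.82% were called lower there, against 6.28% over the 20 libraries. In these 14 libraries 4 members were lower at an unadjusted p under 0.05 and the median was −0.10, and DESeq2 was not run. There the log2 fold changes were −0.54 for Mx1, −0.65 for Oas3, −0.34 for Isg15 and −0.24 for Ifit2, beside −0.61, −0.84, −0.36 and −0.33 over 20 libraries. Without the contamination label in the model the members' median was −0.08, and 25 were below 0. Only Mx1 was called without Restricted 1, 2 or 3 alone, Mx1 and Ifit2 without Control 1, 2, 4, 5 or 7 or Restricted 6 or 9 alone, and 5 members, Zbp1 among them, without Restricted 4.

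**Figure D2:**
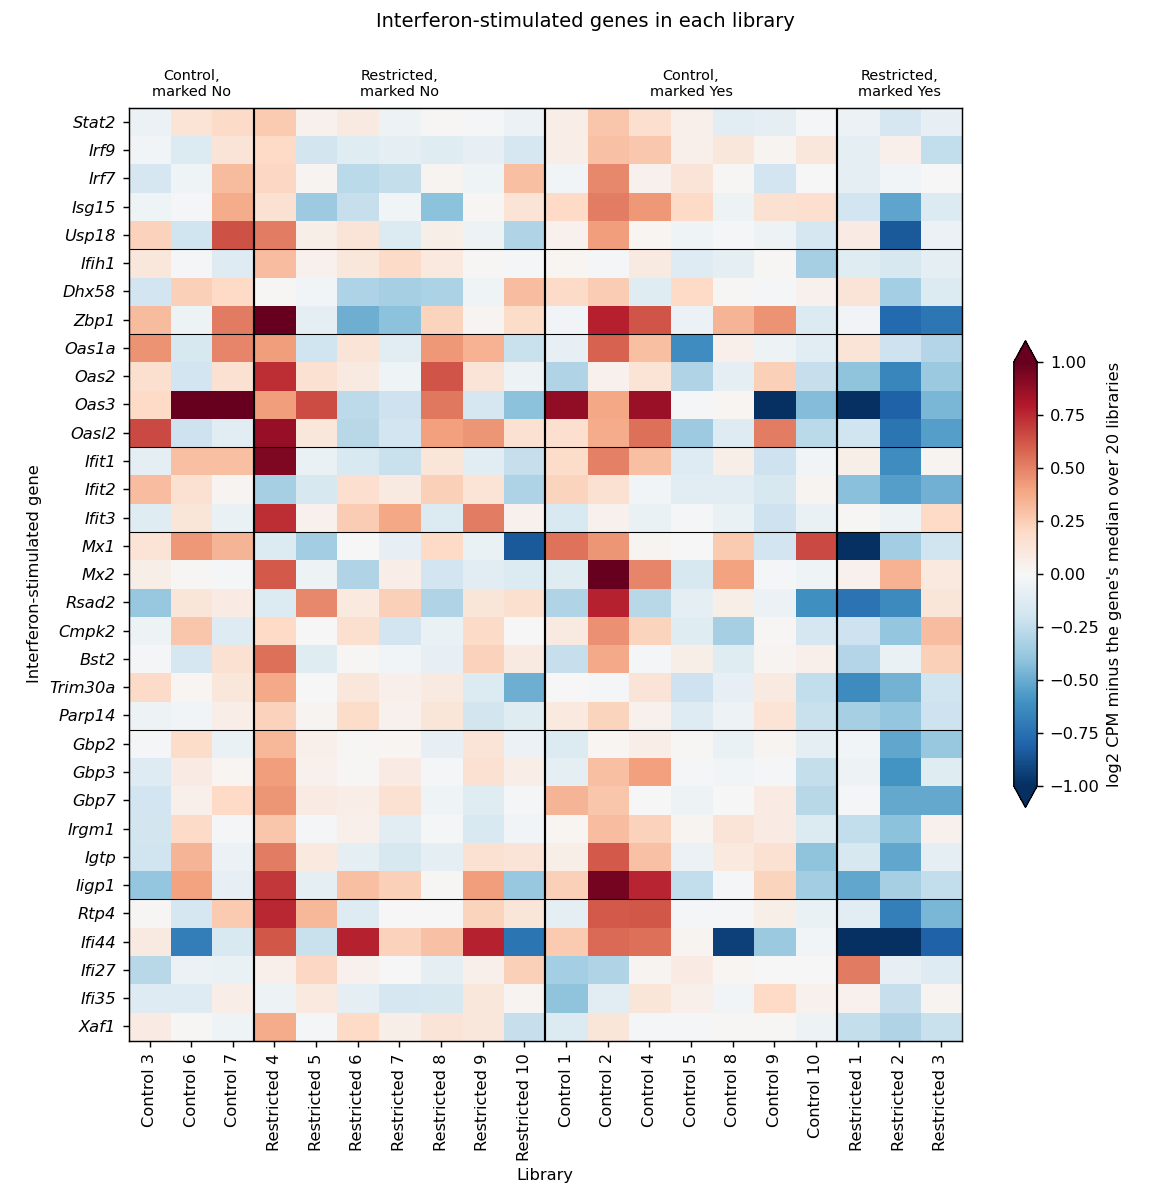
log2 CPM of each member minus its median over the 20 libraries (colour scale, −1 to 1), with members in rows by role and libraries in columns by diet and contamination label. Restricted 4 and Control 2 run high across most rows, and Restricted 2 runs low.

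Of the genes that carry or damp the signal, Isg15, a ubiquitin-like protein that is joined to other proteins, was the member called. Isg15 stood at 4.48, 4.57 and 5.97 CPM in the control libraries marked No and ran from 3.47 to 5.11 (median 4.52) in the restricted ones. In libraries marked Yes, Isg15 ran from 4.45 to 6.59 CPM (median 5.29) in control and stood at 4.05, 3.2 and 4.2 in restricted libraries. The diets overlapped among libraries marked No and not among those marked Yes, where each restricted library was below each control library. Over 20 libraries Isg15 fell by 0.36 on the log2 scale (SE 0.117, adjusted p = 0.0472 in edgeR's quasi-likelihood test), from 5.32 ± 0.737 to 4.18 ± 0.658 CPM (SD, n = 10 each). The call was lost without any 1 of 14 libraries, with an adjusted p of up to 0.132 without Control 7, and held only without Control 3, 6 or 8 or Restricted 4, 7 or 10. It was lost as well with RLE factors, no filter, the block and the integrity number, with log2 fold changes of −0.39 to −0.35 and adjusted p-values from 0.0529 to 0.208. In the same 17 libraries without the integrity number in the model Isg15 was not called either (−0.36, adjusted p = 0.101, edgeR's quasi-likelihood test).

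Irf7, the factor that amplifies type I interferon production and the member of this role with the highest level per length, was not called. Its CPM was 26.6, 29.1 and 37.4 in control libraries marked No and 24.9 to 36.9 (median 30.5) in restricted ones. In those marked Yes it was 26.1 to 41.5 (median 30) in control and 27.9, 29.2 and 30 in restricted libraries. The diets overlapped under both labels, and the log2 fold change was −0.08 (SE 0.0925, adjusted p = 0.636, edgeR's quasi-likelihood test). Stat2 and Irf9, parts of the complex that binds the ISRE, had log2 fold changes of −0.11 and −0.15, and Usp18, which cuts ISG15 off its targets and blocks the receptor, of −0.23, none of them called.

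None of the 3 sensors of nucleic acid was called. Zbp1, a sensor of Z-form nucleic acid, had the smallest p of them, with 6.76, 5.24 and 7.75 CPM in control libraries marked No against 3.86 to 11.2 (median 5.52) in restricted ones. Among libraries marked Yes it ran from 4.92 to 9.3 CPM (median 6.87) in control and stood at 5.29, 3.16 and 3.29 in restricted libraries. The highest value of all, 11.2 CPM, was that of Restricted 4, and the diets overlapped under both labels (log2 fold change −0.45, SE 0.214, adjusted p = 0.18, edgeR's quasi-likelihood test). Ifih1 (MDA5), a sensor of long double-stranded RNA, stood at 32, 29.2 and 27 CPM in control against 29.4 to 36.6 (median 31.7) in restricted libraries marked No. In those marked Yes it was 23.5 to 31.5 CPM (median 29.2) in control and 27.2, 26.5 and 27.8 in restricted libraries. Its groups overlapped under both labels, with a log2 fold change of 0.03 (SE 0.0617) that was −0.01 without Control 7. Dhx58 (LGP2), a partner of the RIG-I-like sensors, differed by −0.19 and was not called.

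The 2′-5′ oligoadenylate synthetases (OAS) make the messenger that activates the ribonuclease RNase L, and Oas3 was the one called. Oas3 stood at 0.759, 1.34 and 1.38 CPM in control libraries marked No and at 0.495 to 1.03 (median 0.584) in restricted ones. Among libraries marked Yes it ran from 0.316 to 1.22 CPM (median 0.669) in control and stood at 0.282, 0.377 and 0.478 in restricted libraries. All restricted libraries marked Yes were below the control median, but the diets overlapped under both labels. The fall was by 0.84 on the log2 scale (SE 0.27, adjusted p = 0.0478, edgeR's quasi-likelihood test), the largest of the members at the lowest level per length. The call was lost without any 1 of 14 libraries (adjusted p up to 0.114 without Control 7) and held only without Control 3, 9 or 10 or Restricted 4, 5 or 8. Oas3 differed by −0.51 without the contamination label in the model (adjusted p = 0.243), and the call was also lost with no filter, the block and the integrity number (adjusted p 0.0988 to 0.344). In the same 17 libraries without the integrity number in the model Oas3 was not called either (−0.74, adjusted p = 0.161, edgeR's quasi-likelihood test).

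Oasl2, an OAS-like protein with a ubiquitin-like tail, stood highest of the family per length and was not called. It was at 27.7, 15.2 and 16.3 CPM in control libraries marked No and at 14.5 to 32.1 (median 19.5) in restricted ones. It was at 13.7 to 25.8 CPM (median 19.8) in control libraries marked Yes and at 15.4, 10.6 and 12 in restricted ones. The groups overlapped, with a log2 fold change of −0.26 (SE 0.196, adjusted p = 0.429, edgeR's quasi-likelihood test). Oas1a and Oas2 differed by −0.15 and −0.09 over 20 libraries. Oas1a has the close copies Oas1b (log2 fold change −0.14) and Oas1g (−0.12), and since the counting tool is not given in the sources used here, reads could be split between such copies. The same holds for Ifit3 and Ifit3b, Mx1 and Mx2, and the Gbp genes.

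The 3 IFIT proteins bind foreign or uncapped RNA through tetratricopeptide repeats, their genes lie close together on chromosome 19, and 1 of them fell. Ifit2 (chr19:34550694-34576419) stood at 14.5, 13 and 11.9 CPM in control libraries marked No and ran from 9.3 to 13.8 (median 12.5) in restricted ones. In libraries marked Yes it ran from 10.5 to 13.6 CPM (median 11.4) in control and stood at 8.73, 8.01 and 8.4 in restricted libraries. The restricted libraries marked Yes lay below every control library, while those marked No overlapped with their controls. Ifit2 fell by 0.33 on the log2 scale (SE 0.0946, adjusted p = 0.029, edgeR's quasi-likelihood test), and the call was lost without Control 3 or Restricted 1, 2 or 3 alone, up to an adjusted p of 0.0704. It was lost too without the contamination label in the model, where Ifit2 differed by −0.19 (adjusted p = 0.252), and in the 14 libraries (−0.24, adjusted p = 0.276), with the integrity number (−0.28, adjusted p = 0.199), with the block (−0.35, adjusted p = 0.0981) and with no filter on low counts (adjusted p = 0.0536).

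Ifit3 (chr19:34583531-34588731), the next of the members along the chromosome, had the highest log2 fold change of all members. It stood at 19, 22.4 and 19.6 CPM in control libraries marked No and ran from 18.7 to 34.5 (median 24.5) in restricted ones. It ran from 17.8 to 21.2 CPM (median 19.6) in control libraries marked Yes and stood at 20.7, 19.8 and 23.7 in restricted ones. The groups overlapped, and the log2 fold change of 0.22 (SE 0.0971) had an adjusted p of 0.153 in edgeR's quasi-likelihood test. Without the contamination label in the model, where Ifit3 was called higher and Irf9, Isg15 and Mx1 lower, the value was 0.28, with an adjusted p of 0.0404 in the same test. Of all 17813 genes, 1333 were called higher and 1259 lower in that fit. Its copy Ifit3b stood at 6.77 ± 1.01 CPM in control and 8.6 ± 1.49 CPM in restricted libraries (SD, n = 10 each), with a log2 fold change of 0.30 and an adjusted p of 0.108. Ifit1 differed by −0.17 and was not called.

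Among the antiviral effectors Mx1, a dynamin-like GTPase that blocks orthomyxoviruses, had the smallest p of the members (RefSeq lists Mx1 of the reference strain as a transcribed pseudogene, and the strain used is not in the labels). Mx1 (chr16:97447035-97462907) stood at 3.38, 4.11 and 3.87 CPM in control libraries marked No and ran from 1.71 to 3.51 (median 2.9) in restricted ones. In libraries marked Yes it ran from 2.69 to 4.84 CPM (median 3.67) in control and stood at 1.46, 2.4 and 2.66 in restricted libraries. The diets overlapped at the edge of the groups marked No and not in those marked Yes. Mx1 fell by 0.61 on the log2 scale (SE 0.16, adjusted p = 0.0162, edgeR's quasi-likelihood test), from 3.74 ± 0.677 to 2.58 ± 0.616 CPM (SD, n = 10 each). Its call held without each of the 20 libraries in turn (adjusted p 0.0102 to 0.0416), but was lost when the 6 libraries with muscle transcripts were left out (−0.54, adjusted p = 0.0963). It was also lost with the RNA integrity number as a term in the 17 libraries that have one (−0.54, adjusted p = 0.187), where no member was called, and with the replicate number as a block (−0.60, adjusted p = 0.103).

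Bst2, the effector with the highest level per length, did not pass the test. It was at 36.1, 32.3 and 40.3 CPM in control libraries marked No and at 33.5 to 53.3 (median 36.7) in restricted ones. It was at 31.1 to 47.5 CPM (median 37.2) in control libraries marked Yes and at 29.8, 34.6 and 42.9 in restricted ones. The groups overlapped, and the log2 fold change of 0.03 (SE 0.0997, adjusted p = 0.892, edgeR's quasi-likelihood test) turned to between −0.02 and −0.01 without Control 6 or Restricted 3 or 4. Of the others, Trim30a, which restrains Toll-like receptor signalling, had a log2 fold change of −0.23. Parp14, an ADP-ribosyltransferase, had −0.14, Rsad2 (viperin) and its neighbour Cmpk2, nucleotide-modifying enzymes encoded side by side, −0.10 and −0.05, and Mx2 −0.07. None of the 5 was called.

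The 6 interferon-inducible GTPases, of families that act on the vacuoles of intracellular microbes, held no called member. Gbp2, the guanylate-binding protein with the highest level per length, stood at 67.9, 77 and 65.1 CPM in control libraries marked No and ran from 64.7 to 86 (median 69.4) in restricted ones. In libraries marked Yes it ran from 61.8 to 71.7 CPM (median 68.5) in control and stood at 66.7, 47.6 and 52.4 in restricted libraries. Restricted 2 and 3 were thus below every other library and Restricted 1 was not (log2 fold change over 20 libraries −0.12, SE 0.0749, adjusted p = 0.312, edgeR's quasi-likelihood test). Irgm1, which holds other GTPases of its family off the cell's own membranes, had the smallest p of this role. It was at 21, 27.2 and 23.5 CPM in control and 21.4 to 28.9 (median 23.4) in restricted libraries marked No. It was at 21.6 to 29.5 CPM (median 25.1) in control and 20, 17.9 and 24.4 in restricted libraries marked Yes. Its groups overlapped, with a log2 fold change of −0.15 (SE 0.0839, adjusted p = 0.272, edgeR's quasi-likelihood test). Gbp3, Gbp7, Igtp and Iigp1 had log2 fold changes of −0.09, −0.17, −0.17 and −0.23.

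Of the remaining 5 members none was called. Ifi27 had the smallest p of them and a value above 0. It stood at 367, 426 and 425 CPM in control libraries marked No and ran from 417 to 525 (median 461) in restricted ones. It ran from 353 to 472 CPM (median 445) in control libraries marked Yes and stood at 636, 422 and 407 in restricted ones. The 636 CPM of Restricted 1 was the highest value, the groups overlapped, and the log2 fold change was 0.20 (SE 0.0844, adjusted p = 0.128, edgeR's quasi-likelihood test). Rtp4, a chaperone of receptors, Xaf1, a binder of the apoptosis inhibitor XIAP, and Ifi35 had log2 fold changes of −0.21, −0.08 and 0.00.

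**Figure D3:**
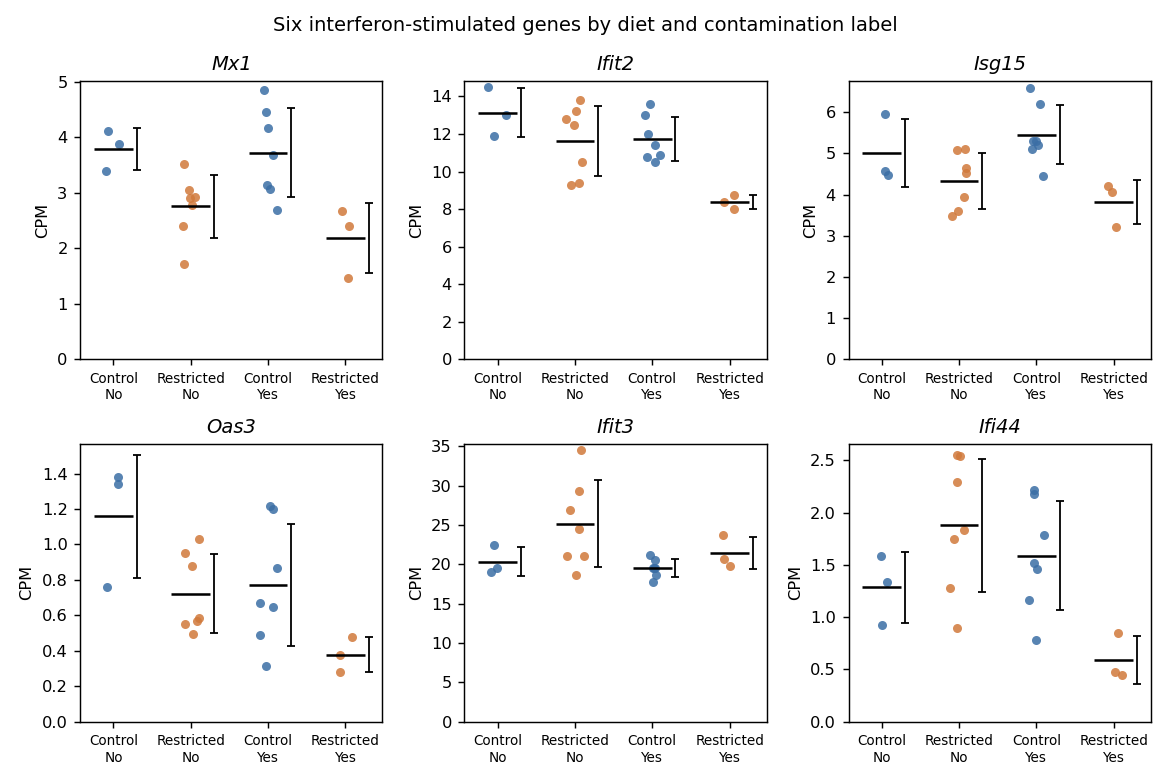
CPM of Mx1, Ifit2, Isg15, Oas3, Ifit3 and Ifi44 in each library (points) by diet and contamination label; lines are group means and bars the SD over 3 or 7 libraries. For Mx1, Ifit2 and Isg15 the 3 restricted libraries marked Yes lie below all 7 control libraries marked Yes, while for Ifit3 the groups overlap.

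The diets were next compared within each contamination label. Among libraries marked No (3 control, 7 restricted), 15 members had a log2 fold change below 0 (45.5%, against 49.7% of all genes), with a median of 0.03. Among those marked Yes (7 control, 3 restricted), 31 were below 0 (93.9%, against 47.6%), with a median of −0.30, and only Ifit3 and Ifi27 were above. Under the label No, 0 members were called by edgeR's quasi-likelihood test (3.55% of all genes were called in either direction), 2 had an unadjusted p under 0.05 (Mx1 lower and Ifit3 higher, 6.06% against 19.2% of all genes), and DESeq2 called 0. Under the label Yes, edgeR likewise called 0 (1.93% of all genes were called, 1.2% lower and 0.735% higher), but 19 members were lower at an unadjusted p under 0.05 (57.6%, against 8.65% of all genes). DESeq2 called 4 of the members lower there, Ifi44, Ifit2, Mx1 and Parp14, and 3.28% of all genes lower and 3.11% higher. The smallest adjusted p of the members in edgeR's quasi-likelihood test was 0.224 under No, for Ifit3, and 0.0545 under Yes, for Ifit2. Markers of other tissues also differed by diet within the labels. Under No, 4 of 7 germ cell markers tested were called lower (median −5.26), beside 2.3% of all genes. Of 8 skeletal muscle markers 1 was called lower there (median −5.32). Under Yes the medians were 1.51 and 0.36. The part of the germ cell transcripts in the members' diet differences was not tested.

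The 19 members lower under the label Yes at an unadjusted p under 0.05 took in all 6 GTPases, Oas2, Oas3 and Oasl2 of the OAS family, Ifit2, Mx1, Trim30a, Parp14, Irf9, Isg15, Zbp1, Rtp4, Ifi44 and Xaf1. In Isg15, Oas2, Ifit2, Mx1, Rtp4 and Xaf1 every restricted library marked Yes was below every control library marked Yes, 6 of 33 members where 4.67% of all genes showed this. Xaf1, 1 of these 6, stood at 13.6, 13 and 13.8 CPM in the restricted libraries against 14.7 to 17.5 (median 16) in the control libraries marked Yes, and at 13.7 to 20.8 (median 17.4) in restricted against 17, 16.2 and 15.7 in control libraries marked No. Among libraries marked No no member had diets that did not overlap, against 4.33% of all genes with control above and 4.08% with restricted above.

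The difference between the labels was itself tested as an interaction. All 33 members had a log2 interaction below 0, that is, a diet difference more negative under Yes than under No, where 48.7% of all genes did. The members' median was −0.30 (all genes 0.01) and the range −1.98 to −0.01. EdgeR's quasi-likelihood test called 0 members and 0% of all genes, and DESeq2 called 0 members. The smallest adjusted p of the members was 0.632. At an unadjusted p under 0.05, 10 members had a more negative difference under Yes (30.3%, against 2.78% of all genes and 6.2% in either direction). They were Oas2, Oasl2, Parp14, Gbp2, Gbp3, Gbp7, Iigp1, Rtp4, Ifi44 and Xaf1. The members share libraries and regulators, so their common sign is not 33 separate observations, and a diet effect that differs between the labels was not shown for any single member.

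Ifi44, an interferon-induced protein of uncertain function, had the largest interaction and is named for its values, outside the rule for named genes. It stood at 1.59, 0.925 and 1.34 CPM in control libraries marked No and ran from 0.9 to 2.55 (median 1.83) in restricted ones. It ran from 0.786 to 2.22 CPM (median 1.52) in control libraries marked Yes and stood at 0.45, 0.471 and 0.85 in restricted ones. The groups overlapped under both labels, with a log2 fold change of 0.56 under No and −1.42 under Yes. The interaction of −1.98 (SE 0.521) had an unadjusted p of 0.00112 and an adjusted p of 0.632 in edgeR's quasi-likelihood test.

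**Figure D4:**
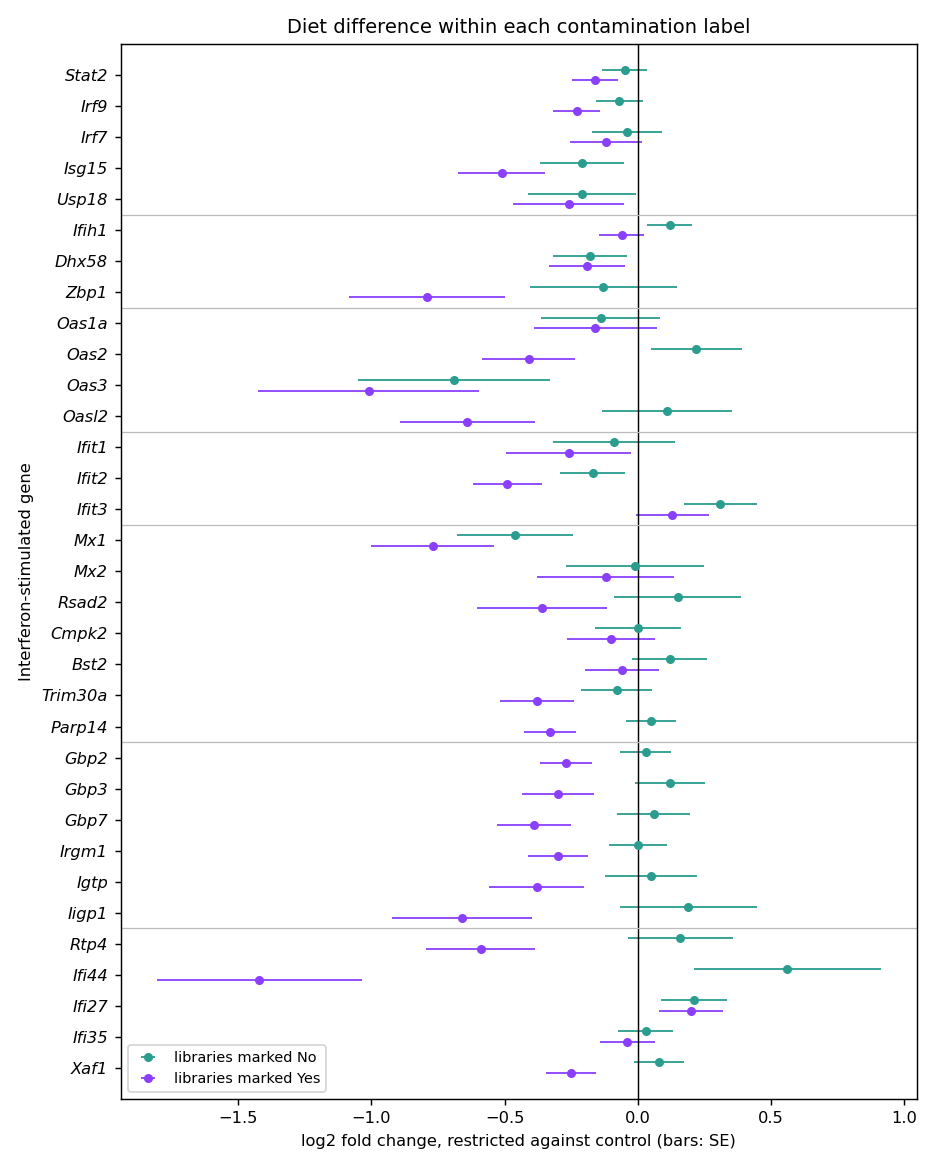
log2 fold change of restricted against control for each member within libraries marked No and within those marked Yes (points, with bars of 1 SE). Under Yes 31 of 33 members lie below 0, under No 15.

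Single libraries stood apart in these comparisons. Restricted 2, marked Yes, was the lowest of the 20 libraries for 17 members and among the lowest pair for 22, with a median deviation of −0.41 from the members' medians on the log2 scale. Its RNA integrity number of 6.5 was the lowest of the 17 known (6.5 to 7.9), and its germ cell marker sum of 98.8 CPM was the highest. The part of either in the members' levels was not tested. Without Restricted 2, the members lower under Yes at an unadjusted p under 0.05 went from 19 to 8 and those of the interaction from 10 to 4. Without it 29 members were still below 0 under Yes, with a median of −0.22, and 26 had an interaction below 0. The interaction count was 6 without Control 3 or without Control 7, and ran up to 13 without Control 10. In the 14 libraries without muscle transcripts, which leave Control 8 to 10 and Restricted 2 and 3 under Yes, it was 5, the count under Yes was 6, and 27 members were below 0 in both, with medians of −0.26 under Yes and −0.18 for the interaction. Under No, where Control 6 and 7 are left, 17 members were below 0 there, with a median of −0.03.

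At the other end, Restricted 4, marked No, was highest for 14 members and Control 2, marked Yes, for 11, with median deviations of 0.38 and 0.37 on the log2 scale. The members' median deviation of the other 17 libraries lay between −0.14 and 0.14. Control 2 also had the highest sum of T and natural killer cell markers, 20.2 CPM, where the other libraries had 5.93 to 16.1, and Restricted 4 stood at 9.61 CPM. The part of these cells in the members' levels was not tested.

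With the diet held as a term, 29 members were lower in libraries marked Yes than in those marked No (87.9%, against 52.1% of all genes), with a median of −0.16 against −0.01 over all genes. EdgeR's quasi-likelihood test called 0 members by label (0.281% of all genes were called lower and 5.89% higher), 8 were lower at an unadjusted p under 0.05 (24.2%, against 4.31% of all genes), and DESeq2 called 2 lower, Ifit2 and Oas2 (0.507% of all genes). The smallest adjusted p was 0.0511, for Ifit2, which was lower by 0.31 on the log2 scale with the label Yes: the groups marked Yes had medians of 11.4 and 8.4 CPM against 13 and 12.5 in those marked No. The count of 8 was 4 without Restricted 2, 5 without Restricted 3 and 11 without Control 6. In the 14 libraries without muscle transcripts it was 14, the median was −0.27, 31 members were below 0, and edgeR called 3 lower, Gbp2, Gbp7 and Oas3 (0.337% of all genes).

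Upstream of the members, few transcripts of the interferons themselves were counted. Of 21 genes for interferons, 18 had no count in any library, and the others held 67 counts in all. Ifng, the interferon of T and natural killer cells, held 59 of them, spread over 18 libraries with at most 6 in any one, while Ifnk held 6 and Ifnz 2. None of the 21 passed the filter. No diet comparison of the ligands was therefore made.

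Of 6 receptor chains, 2 rose and none fell (5.5% and 6.28% of all genes), with a median of 0.05. Ifngr2, the signalling chain of the interferon gamma receptor, rose from 31.8 ± 2.86 to 38.5 ± 3.89 CPM (SD, n = 10 each; log2 fold change 0.30, adjusted p = 0.00538, edgeR's quasi-likelihood test). Il10rb, shared with interferon lambda and interleukin 10, rose by 0.16 in log2 CPM (adjusted p = 0.0466), a call lost without any 1 of 13 libraries and held without Control 3, 4 or 5 or Restricted 5, 6, 7 or 10. Ifnar1 and Ifnar2, the chains for type I interferon, had log2 fold changes of −0.07 and 0.08, and Ifngr1, the binding chain for interferon gamma, −0.15. Both calls held in the 14 libraries, where 1.97% of all genes were called higher, with 0.38 for Ifngr2 (adjusted p = 0.0124).

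Of 8 further transducers, 3 fell and none rose (6.28% and 5.5% of all genes), with a median of −0.11. Irf5, a factor of myeloid cells downstream of Toll-like receptors, fell from 25.8 ± 3.7 to 18.9 ± 3.23 CPM (SD, n = 10 each; log2 fold change −0.48, adjusted p = 0.00537, edgeR's quasi-likelihood test). Tyk2, the kinase on IFNAR1, fell by 0.21 in log2 CPM (adjusted p = 0.011), and Irf8, a factor of macrophages and dendritic cells, by 0.34 (adjusted p = 0.04). The call of Irf8 was lost without Control 1, 2, 6, 7 or 10 or Restricted 1, 2, 4 or 10 alone, up to an adjusted p of 0.133. Stat3 had −0.15 and was not called. No transducer was called in the 14 libraries, where 2.82% of all genes were called lower. The log2 fold changes there were −0.34 for Irf5 (adjusted p = 0.102, edgeR's quasi-likelihood test), −0.23 for Tyk2 (adjusted p = 0.0628) and −0.34 for Irf8 (adjusted p = 0.127).

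Among 16 sensors and adaptors of nucleic acid, 5 fell (Tlr9, Tlr8, Tlr7, Tmem173 and Myd88) and 1 rose (Mavs), beside 6.28% and 5.5% of all genes, with a median of −0.15. The 1 that rose is close to the share of all genes. Tlr9, a DNA sensor of endosomes, fell from 4.15 ± 0.844 to 2.67 ± 0.491 CPM (SD, n = 10 each; log2 fold change −0.63, adjusted p = 0.00774, edgeR's quasi-likelihood test). Tlr7, its counterpart for RNA, fell by 0.42 in log2 CPM (adjusted p = 0.0355) and Myd88, the adaptor of both, by 0.14 (adjusted p = 0.0334). Mavs, the mitochondrial adaptor of the RNA sensors IFIH1 and RIG-I, rose by 0.15 (adjusted p = 0.0235). The calls of Tlr7, Myd88 and Mavs were lost without 8, 5 and 2 single libraries, with an adjusted p of up to 0.0878, 0.0998 and 0.0961. The libraries were Control 2, 6 and 7 and Restricted 2, 3, 4, 5 and 10 for Tlr7, Control 3, 7, 8 and 10 and Restricted 1 for Myd88, and Control 3 and Restricted 1 for Mavs. In the 14 libraries, where 2.82% of all genes were called lower, Tlr9 was the only one of the 16 called (log2 fold change −0.74, adjusted p = 0.0221). There Tlr7, Myd88 and Mavs had −0.46, −0.11 and 0.10.

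Of 14 restraints of the pathway that were tested, 4 fell (Samhd1, Ptpn6, Pias1 and Socs3) and 1 rose (Rnaseh2a), beside 6.28% and 5.5% of all genes, with a median of −0.08. Here too the 1 that rose is close to the share of all genes. Samhd1, which breaks down the nucleotides that viruses copy with, fell from 99.5 ± 7.25 to 83.5 ± 11.3 CPM (SD, n = 10 each; log2 fold change −0.31, adjusted p = 0.00645, edgeR's quasi-likelihood test). Ptpn6, a phosphatase of blood cells, fell by 0.40 in log2 CPM (adjusted p = 0.0162), and Pias1, a SUMO ligase, by 0.20 (adjusted p = 0.0336). Rnaseh2a, a subunit of the nuclease that clears RNA from DNA, rose by 0.23 (adjusted p = 0.0155). Ptpn6 lost its call without Control 7, Rnaseh2a without Restricted 2, and Pias1 without Control 1, 3, 7 or 8 or Restricted 1 or 3. None of the restraints was called in the 14 libraries, where 2.82% of all genes were called lower and 1.97% higher. The log2 fold changes there were −0.22 for Samhd1 (adjusted p = 0.11, edgeR's quasi-likelihood test), −0.31 for Ptpn6, −0.12 for Pias1 and 0.24 for Rnaseh2a (adjusted p = 0.0603).

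A further 57 interferon-induced genes that are no members were tested, and 13 fell while 1 rose, against 6.28% and 5.5% of all genes, with a median of −0.16. Ifi27l2a, a close relative of Ifi27, fell from 1250 ± 280 to 676 ± 218 CPM (SD, n = 10 each; log2 fold change −0.98, adjusted p = 0.00147, edgeR's quasi-likelihood test), where Ifi27 itself had a value above 0. Ly6e, a surface protein that restricts viral entry, fell from 332 ± 19.7 to 265 ± 23.6 CPM (log2 fold change −0.33, adjusted p = 0.000947). Ifi207, of the DNA-binding family of interferon-inducible proteins, fell by 0.57 (adjusted p = 0.00119) and Epsti1 by 0.61 (adjusted p = 0.0014). The calls of these 4 held without each of the 20 libraries and in the 14 libraries, where 6 of the 57 were called lower and none higher (2.82% and 1.97% of all genes). Parp9, which works with Dtx3l on histones, was the 1 that rose, by 0.27 (adjusted p = 0.0286). Under the label Yes 8 of the 57 were called lower, beside 1.2% of all genes, and under No 2 were, Ly6e and Ifi27l2a, beside 2.3%.

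Class I antigen presentation is raised by both interferon types. Of its 13 genes none fell and 1 rose, near the 5.5% of all genes that did, with a median of 0.01. B2m, the shared light chain of class I molecules, rose from 919 ± 77.5 to 1210 ± 107 CPM (SD, n = 10 each; log2 fold change 0.35, adjusted p = 0.00117, edgeR's quasi-likelihood test), also without each library in turn and in the 14 libraries (0.41, adjusted p = 0.0106). Tapbp and H2-D1 had log2 fold changes of 0.17 and 0.19 and Tap1, the peptide transporter, −0.14, none of them called.

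**Figure D5:**
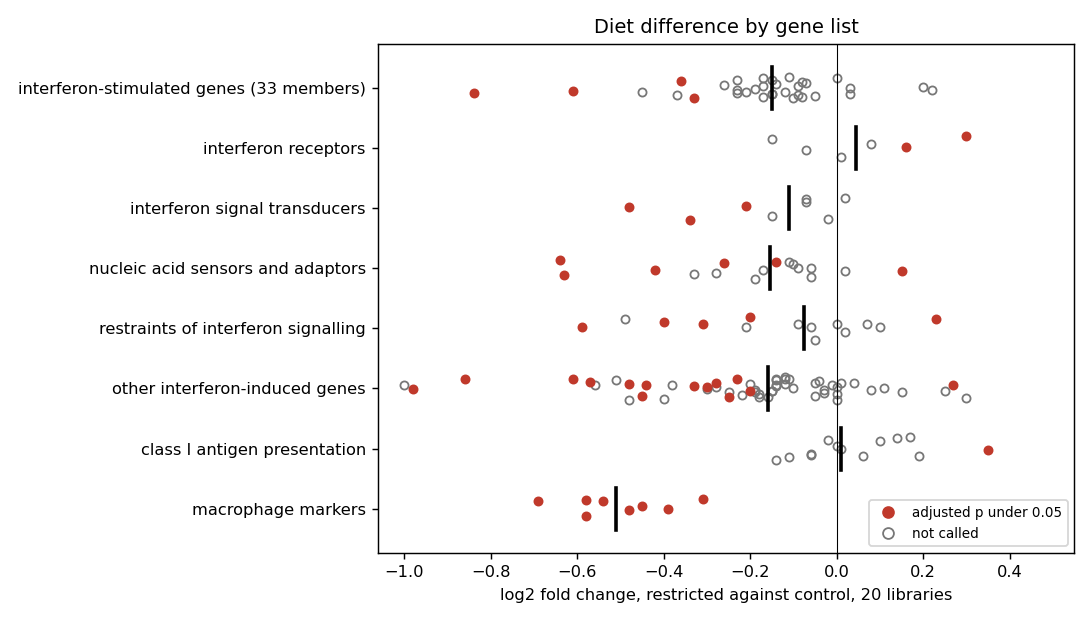
log2 fold change of restricted against control over 20 libraries for the members, 6 further gene lists of the pathway and the macrophage markers; filled points have an adjusted p under 0.05, open points do not, and bars are medians. The median is −0.15 for the members and −0.51 for the macrophage markers, all 8 of which were called.

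Markers of immune cells were set beside these genes, and only the macrophage list fell in all its markers. All 8 macrophage markers fell, among them Adgre1 and Csf1r, where 6.28% of all genes were called lower. Their median log2 fold change was −0.51. Their sum ran from 1280 to 1730 CPM in control and from 930 to 1470 CPM in restricted libraries. The fall was of like size under both labels, with a median of −0.51 under No and −0.56 under Yes. Under No 5 of the 8 were called, beside 2.3% of all genes called lower, and under Yes 6 were, beside 1.2%. In the 14 libraries the median was −0.52 with 6 called, beside 2.82% of all genes. Of 6 markers of plasmacytoid dendritic cells, the chief makers of type I interferon, 4 were tested and 2 fell: Siglech went from 3.05 ± 0.907 to 1.68 ± 0.593 CPM (SD, n = 10 each) and Cd209d was lower by 0.59 on the log2 scale. The sum of the 6 ran from 17.3 to 37.8 CPM in control and 11.8 to 18.4 CPM in restricted libraries. Within neither label did the diets overlap (17.3 to 37.8 against 11.8 to 16.7 CPM under No, 19.2 to 28.1 against 16 to 18.4 CPM under Yes). Of single tested genes, 4.33% under No and 4.67% under Yes had control above without overlap. The sum takes in 6 genes, so these shares are not a like measure for it. The 4 tested had a median log2 fold change of −0.83 under No, with 2 called lower, but −0.10 under Yes, with 1. In the 14 libraries 3 were tested and 1 was called lower, with a median of −0.54. The part of the muscle transcripts in this sum was not tested. Of 8 markers of T and natural killer cells 1 fell, Cd4 (6.28% of all genes were called lower), and the sums overlapped, at 5.93 to 20.2 against 6.52 to 10.6 CPM. Of 4 B cell markers 0 were called, and of 5 endothelium markers 1 was called lower. The B cell sums overlapped, at 7.97 to 19.5 CPM in control and 4.79 to 28.6 CPM in restricted libraries. None of the markers on these lists was at 0 in all libraries. In bulk tissue fewer cells of a type and less RNA per cell cannot be told apart, and the part of these cells in the members' levels was not tested.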

How the data were processed

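The authors' deposited table holds whole-number counts per gene for the 20 libraries, with gene coordinates and lengths, whose totals differ between libraries and which include genes at 0 throughout. Per the labels' protocols, the kit was Universal Plus mRNA-seq, with 52-bp paired ends. That text names QUAD, but eWAT, the tissue label, was followed. GRCm38, STAR, Salmon and bcl2fastq 4.0.3 are named in the submitters' processing notes, without their roles. Neither the counter nor its strand setting is given in those sources, so a gene cannot be told apart from one that overlaps it on the other strand. Symbols came from gene identifiers, for 54349 genes exactly and 792 without the version number; the 260 genes with none held 0.0086% of the counts. The members, the lists and the tests were chosen with earlier results of these data known.

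Tests on the deposited counts were run in edgeR 4.0.16 under R 4.3.3: filterByExpr on the 4 diet-by-label groups with a minimum count of 10 (17813 genes, at least 99.847% of each library's counts), TMM factors, two-sided quasi-likelihood tests and Benjamini-Hochberg adjustment at 0.05. The diet and the label were tested in a fit with both as terms, whose biological coefficient of variation was 0.217. The diets within each label and the interaction came from a fit of 4 group means over all 20 libraries. CPM values are counts over the total of the tested genes times the TMM factor. A ± is an SD. No pair of libraries of a diet was within sampling noise (the lowest chi-square over its degrees of freedom was 9.98).

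Values by library are given for members called in a comparison by diet and, for each role, for the member with the smallest diet p and that with the highest CPM per kilobase. Up to 4 genes of each list with the smallest diet p are named, and Ifnar1, Ifnar2 and Ifngr1. A gene that the rule also named is not reported here. Ifi44, Ifit3b, Oas1b, Oas1g, Xaf1, Tlr8, Tmem173, Socs3, Parp9, Spata18, Sycp3 and the markers named were added after their values were seen. Alternatives were DESeq2 1.42.0, RLE factors, other filters, models without the label or with the RNA integrity number, 14 libraries without muscle transcripts, each label alone, a block for the replicate number, and each library left out in turn. The steps were tested on simulated data. Figures used matplotlib 3.10.9.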

Additional observations from a re-analysis of the deposited data

Results flagged for a closer look

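Each member was looked at in 4 groups of 7 or 10 libraries for a library that stood apart by Dixon's test, and 17 of 132 such groups (12.9%), in 12 members, held one. The test flags about 1 in 20 where values are normally spread, which was not checked for these CPM values. The groups of 7 lie within those of 10, and the members share libraries. No share over all genes was taken, so the 12.9% cannot be set against chance. All were the highest of their group, and 16 of the 17 were in Restricted 4 or Control 2. Restricted 4, marked No, stood above the other restricted libraries marked No in 7 members: 32.8 CPM of Irf9 (next 27), 11.2 of Zbp1 (next 6.28), 8.86 of Ifit1 (next 5.04), 2.42 of Mx2 (next 1.67), 41.5 of Gbp3 (next 34.3), 35.9 of Gbp7 (next 29.3) and 23.9 of Igtp (next 18.6). Its values of Zbp1 and Ifit1 stood apart from all 10 restricted libraries too. Control 2, marked Yes, stood above the other control libraries marked Yes in 5 members: 41.5 CPM of Irf7 (next 32.7), 5.76 of Usp18 (next 4.42), 3.29 of Mx2 (next 2.23), 16.5 of Rsad2 (next 10.1) and 47.5 of Bst2 (next 38.1). Its values of Mx2 and Rsad2 also stood apart from all 10 control libraries. Restricted 1, marked Yes, held 636 CPM of Ifi27 where the next of the 10 restricted libraries had 525.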

How the results depend on the processing

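The members called lower by diet numbered 1 with no filter on low counts, 0 in the 14 libraries without muscle transcripts, 0 with the RNA integrity number in 17 libraries, 2 in those 17 without it, 2 with a replicate block and 1 to 5 with single libraries left out; without the label in the model 1 member, Ifit3, was called higher. Under the label Yes, members called lower were 4 by DESeq2 (471 of all genes), 2 with a filter at 1 CPM (271) and 1 with the block (125). With single libraries left out they were 0 to 2 (51 to 272 of all genes). For the label itself members called lower were 2 by DESeq2 (90 of all genes), 1 with RLE factors (53), 3 in the 14 libraries (61) and 1 with the block (96). With single libraries left out these were 0 to 2 (25 to 118 of all genes). The cause of these changes was not tested. Medians over the members ran, with single libraries left out, from −0.19 to −0.09 by diet, −0.04 to 0.05 under No, −0.36 to −0.22 under Yes, −0.35 to −0.24 for the interaction and −0.21 to −0.12 for the label. Without the label in the model the diet median was −0.08, and in the 14 libraries the medians were −0.10 by diet, −0.18 for the interaction and −0.27 for the label.

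The replicate numbers did not pair the libraries: the correlation of paired deviations ran from −0.122 to 0.18, 1 of 10 pairs was over 0.1, and 2 of 20 libraries were closest to their own number. With the replicate block the 2 members called by diet were Oasl2 and Zbp1, and over all genes 815 were lower and 486 higher, against 1119 and 979 without it. With the integrity number the counts over all genes were 168 and 163, and 734 and 601 in the same 17 libraries without it. In the 14 libraries they were 510 and 357, with no filter 855 and 599, without Control 6 they were 857 and 623, and without Control 7 803 and 633.

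The diet difference of 9 genes, none of them called in either fit, changed sign. In the 17 libraries Ifih1 was at −0.01, with or without the integrity number, and Oas1a at 0.06 with it. Without the label Oas2, Rsad2 and Ifi44 were at 0.11, 0.01 and 0.01, and in the 14 libraries Mx2, Cmpk2 and Ifi44 were at 0.05, 0.05 and 0.11. With single libraries left out, Mx2 ran from −0.13 to 0.02 (above 0 without Control 2), Cmpk2 from −0.14 to 0.02 and Gbp3 from −0.14 to 0.01 (both above 0 without Restricted 2), Bst2 from −0.02 to 0.09 (below 0 without Control 6, Restricted 3 or Restricted 4) and Ifih1 from −0.01 to 0.05 (below 0 without Control 7). Depth limits Oas3, Ifi44 and Mx2, whose levels per length were lowest.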
